A study of Caenorhabditis elegans with 4 samples.

Results

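The NHR-6 binding sites on the X chromosome of Caenorhabditis elegans were the 491 peaks that the authors' combined list placed on X. They were chosen by chromosome alone, without reference to score, width or neighbours. They made up 18.1% of that list. The other 2216 peaks lay on the 5 autosomes, which held between 386 (IV) and 478 (V) each. The peaks came from chromatin immunoprecipitation followed by sequencing (ChIP-seq), in which DNA crosslinked to a protein is recovered with an antibody and sequenced. The series has 4 samples, of which 2 are ChIP replicates pulled down with anti-GFP antibodies and 2 are input samples of total genomic DNA, whose values were not analysed here. All 4 samples came from L4 hermaphrodites of strain OP90, raised at 20 °C on HB101 bacteria and fixed whole with formaldehyde. The strain carries the allele unc-119(ed3) on chromosome III and, in every animal, the transgene wgIs90. That transgene holds a working unc-119(+) copy beside nhr-6 joined to TY1, EGFP and 3xFLAG, and the antibody recognised this tagged protein. The transgene entered by particle bombardment, the strain was not outcrossed, and the labels do not say on which chromosome the transgene lies. The labels place the fusion protein in neurons around the pharynx at the L2 stage, whereas the ChIP used whole L4 animals, so a peak cannot be assigned to a cell type.

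NHR-6 belongs to the NR4A group of nuclear receptors, transcription factors that act without a known hormone in mammals and can bind DNA as single molecules. In worms nhr-6 is known for its part in the development of the spermatheca, the organ in which eggs are fertilised. Hermaphrodites carry a pair of X chromosomes and males carry a single one, and in hermaphrodites a dosage compensation complex lowers the output of both X copies. The worm's autosomes are divided into gene-dense centres with little recombination and arms that are richer in repeats and repressive chromatin, a division that is weaker on X.

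The replicate lists were much longer than the combined list, with 25987 and 29512 peaks. Peaks were ranked within each list by the authors' score, whose scale is not stated, and ties were ordered by the authors' peak number. On X, 365 of the 491 combined peaks (74.3%, 95% Wilson interval 70.3 to 78.0) sat at the highest score, beside 73.0% of the whole combined list, so most ranks below rest on peak number. No read counts were given, so the depth of the libraries is unknown and intervals cover the counting of peaks only. Peaks are neither samples nor independent of each other. X was therefore set beside each autosome, and an exact permutation test with the chromosome as the unit (two-sided, 6 chromosomes) was the test used. It cannot give a p below 0.167, so no difference between X and the autosomes could pass 0.05. The coordinates are those of genome build WS220, counted from 1. Genes, exons and sequence under the peaks were not used here, because the gene table at hand belongs to another build.

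X carried an intermediate density of binding. Its 491 peaks over a span of 17.7 Mb made 27.7 peaks per Mb. The autosomes ranged from 22.1 per Mb on IV to 33.4 on III, with a mean of 27.4 ± 4.82 (SD, 5 autosomes), and X lay inside that range (exact permutation p = 1). No interval was listed more than once on X. After overlapping peaks were joined, 478 separate intervals remained, which together covered 225 kb, or 1.27% of the span. The full replicate lists held 267 and 308 peaks per Mb on X, against autosomal ranges of 215 to 313 and 247 to 355. In these lists, too, X stood in the middle.

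The peaks were spread more evenly along X than along any autosome. Over the 35 full bins of 500 kb, X held 5 to 21 combined peaks per bin with a median of 14, and the middle 50% of bins held 12 to 15.5. The SD of the bin counts was 0.233 of their mean on X. On the autosomes this ratio ran from 0.349 on IV to 0.806 on V. The variance of the bin counts was 0.754 times their mean on X, and 1.36 (IV) to 7.42 (V) times on the autosomes, so that X lay below all 5 (exact permutation p = 0.333). Because this measure was chosen after the counts had been seen, it describes the list. It held in both full replicate lists. The SD over the mean on X was 0.160 in replicate 1, against 0.173 (I) to 0.268 (V), and 0.150 in replicate 2, against 0.179 (III) to 0.292 (V). X was also lowest with bins of 250 kb or 1000 kb, but not among the first 1353 peaks of the combined ranking, where its variance over mean of 0.882 fell within the autosomal range of 0.825 to 6.17.

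**Figure D1:**
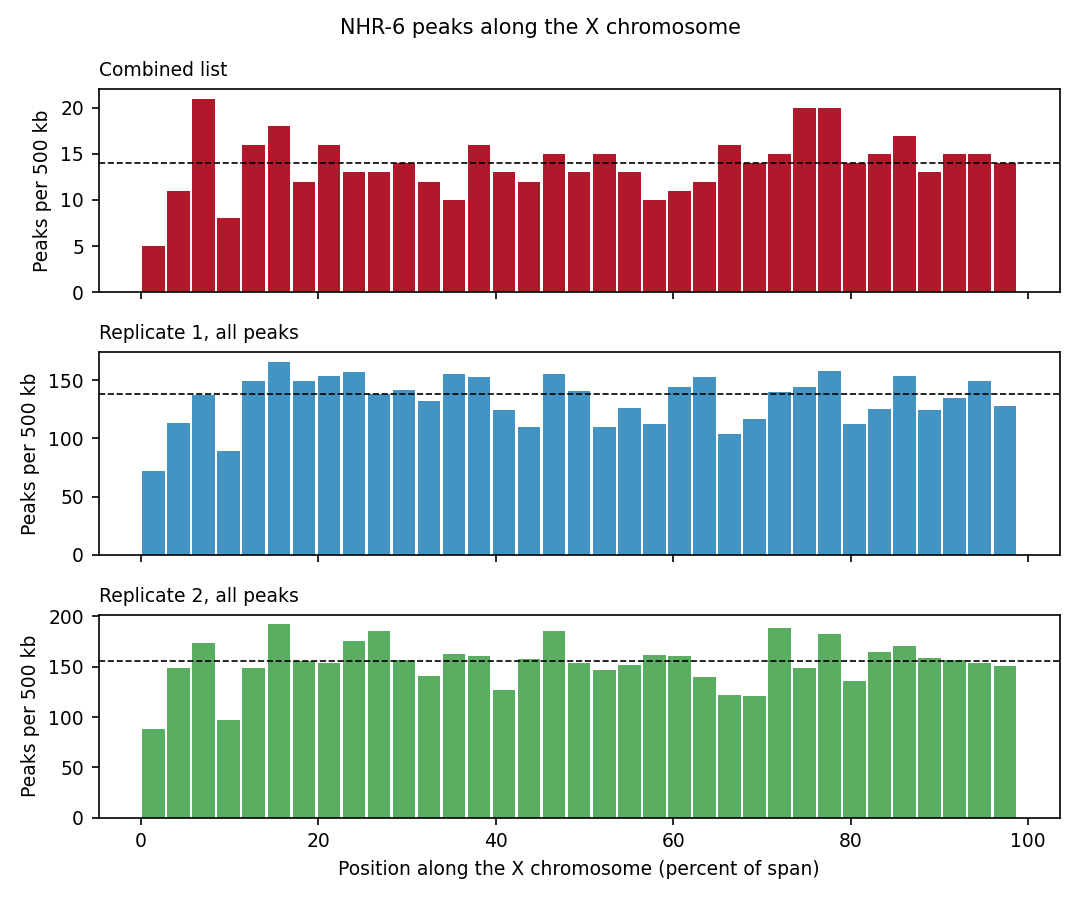
Peaks per 500-kb bin along X, as a percent of the chromosome's span, in the combined list (top) and in the full list of each replicate; the dashed line is the median over the 35 full bins (14, 138 and 156). The bin at the left end and the fourth bin are the lowest in all 3 lists.

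The emptiest bin lay at the left end of X, from 1 to 500000, with 5 combined peaks, 72 replicate 1 peaks and 88 replicate 2 peaks. The next emptiest, at 1500001 to 2000000, held 8 combined, 89 replicate 1 and 97 replicate 2 peaks. These bins were the lowest in every list. The fullest combined bin stood between them, at 1000001 to 1500000, with 21 combined peaks, while its 137 and 174 replicate peaks were close to or above the medians of 138 and 156. The next fullest, with 20 combined peaks each, were neighbours at 13000001 to 13500000 and 13500001 to 14000000.

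The left end was sparse in every list. The first combined peak of X started at 353119, whereas the first peak of an autosome started at between 13279 (V) and 175603 (IV). After the last combined peak, 76.1 kb of X remained up to the last peak of any list, against 9.65 to 64.5 kb on the autosomes (exact permutation p = 0.167 for each end). The replicates did list peaks to the left of the first combined peak, 27 and 38 of them, the first starting at 5669 and 5636. Their density there was 76.5 and 108 per Mb, below the 267 and 308 per Mb of the whole chromosome. They were weak, with median ranks of 17470 and 22332 and best ranks of 3089 and 2323. In each replicate 10 of them overlapped a peak of the other, or 37.0% in replicate 1 and 26.3% in replicate 2. Over all X peaks of these lists the shares were higher, 55.5% and 47.9%.

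Binding on X was not concentrated in the chromosome centre. The central 33.3% of X held 154 peaks, or 31.4% (95% Wilson interval 27.4 to 35.6). The left 33.3% held 157 (32.0%) and the right 33.3% held 180 (36.7%). All 5 autosomes had a larger central share, from 37.4% on III to 50.8% on V, with a mean of 42.5% ± 5.20 (SD; exact permutation p = 0.333). When each chromosome was divided into parts of 10% of its span, the parts of X held 8.35% to 13.6% of its peaks. The lowest was the first part, followed by those from 50% to 60% and from 60% to 70% of the span with 8.76% each, and the highest was the part from 70% to 80%. On V the same division ran from 2.51% to 25.7%. In the full replicate lists, which include many weak peaks, the central share on X was 33.2% in both, and the autosomes reached 33.6% to 39.3% and 34.3% to 39.3%. X was again the lowest, by a much smaller margin.

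**Figure D2:**
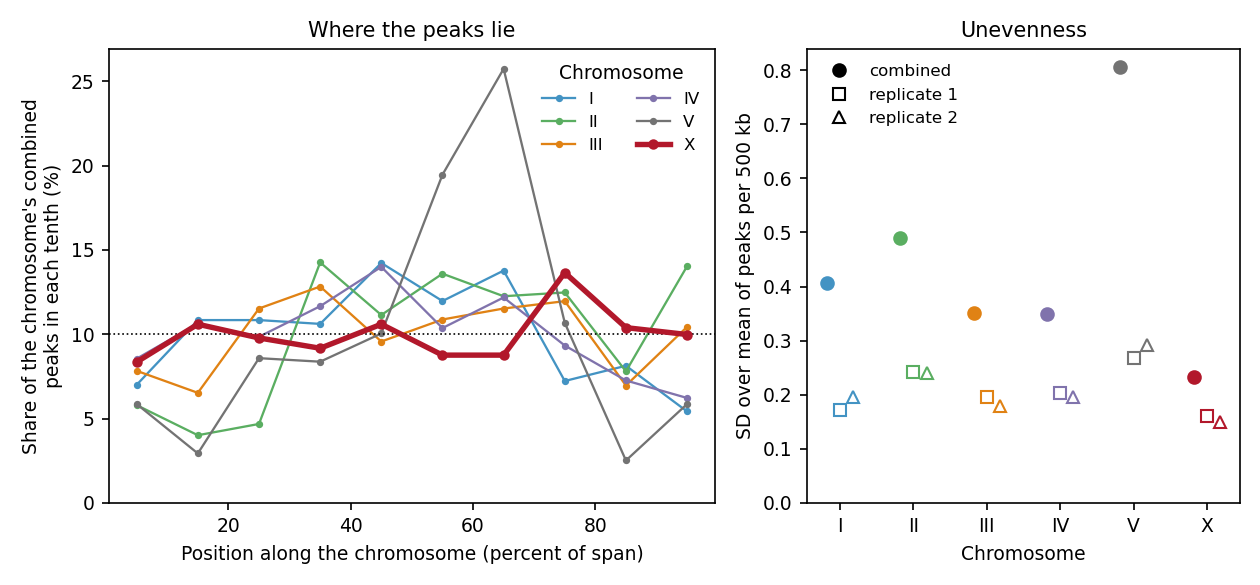
Left, the share of each chromosome's combined peaks in each 10% of its span, with X in thick red and a dotted line at the 10% of even spacing; X stays between 8.35% and 13.6%. Right, the SD over the mean of peaks per 500 kb for each chromosome in the combined list and both replicate lists; X has the lowest value in each (0.233, 0.160 and 0.150).

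Neighbouring peaks on X stood somewhat farther apart than on most autosomes. The median gap between the edges of neighbouring combined peaks was 22.1 kb, with quartiles of 5.30 and 50.7 kb, over 490 gaps. Of the autosomes only IV had a longer median, 29.5 kb, and the other 4 had 14.9 to 18.1 kb, so X lay within the autosomal range (exact permutation p = 0.833). The mean gap told another order, since at 34.8 kb on X it was shorter than on IV (44.4 kb) and V (43.2 kb). Very short and very long gaps were both of ordinary frequency: 34 gaps (6.94%) were 1 kb or less, against 5.45% to 10.5% on the autosomes, and 41 (8.37%) exceeded 100 kb, against 5.66% to 12.2%. Overlapping peaks were also ordinary, at 25 of 491 (5.09%), against 2.85% (IV) to 6.30% (III) on the autosomes.

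Between neighbouring combined peaks, the longest empty stretch of X was 259 kb, from 10772485 to 11031342. Only III had a shorter longest gap, 252 kb, and on V it reached 693 kb (exact permutation p = 0.5). The replicates listed 53 and 65 peaks inside the X stretch, with best ranks of 1120 and 1888. A stretch empty in the combined list was therefore not empty in the longer lists. The next longest gaps were 232 kb from 8836267, 226 kb from 1627227 and 226 kb from 3246227. The one from 1627227 to 1853536 was thin in the replicates as well, with 22 and 13 peaks and no rank better than 5400 and 4981.

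**Figure D3:**
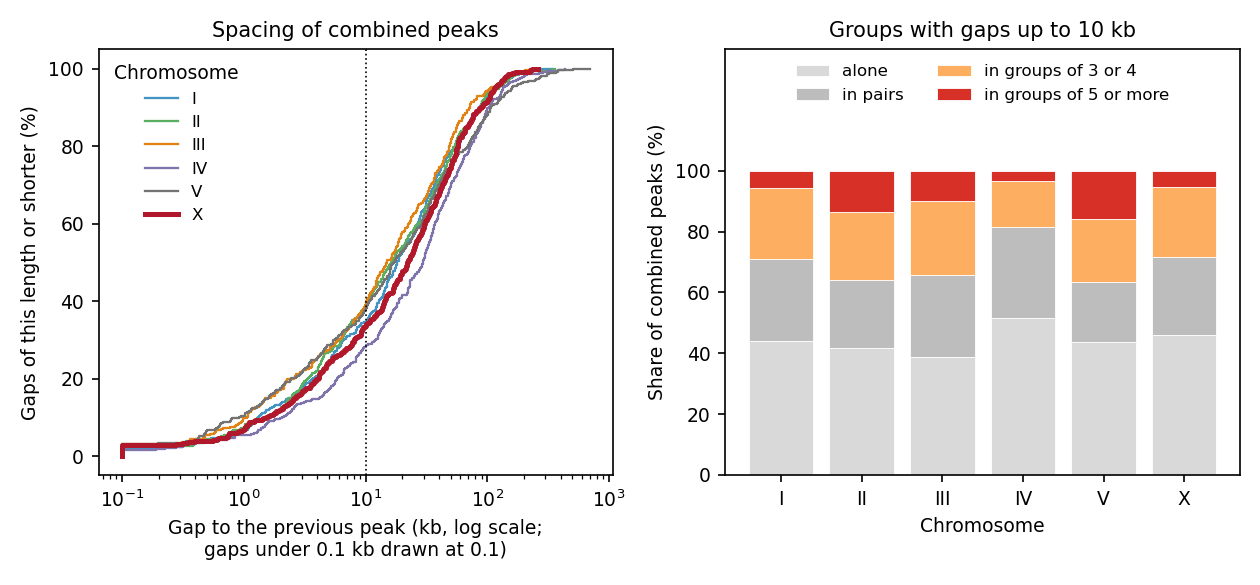
Left, the cumulative share of gaps between neighbouring combined peaks by length in kb (log axis) for each chromosome; X (red) runs between IV and the other autosomes around its median of 22.1 kb. Right, the share of combined peaks that stood alone, in pairs or in larger groups with gaps up to 10 kb; 46.0% of X peaks stood alone and 28.3% were in groups of 3 or more.

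When peaks separated by at most 10 kb were joined, X resolved into 326 regions, more than any autosome (276 to 298; exact permutation p = 0.167), though it also had the most peaks. Of its peaks 226 (46.0%) stood alone, 126 formed 63 pairs and 139 (28.3%, 95% Wilson interval 24.5 to 32.5) fell into 37 groups of 3 or more. On the autosomes the share in such groups ran from 18.4% on IV to 36.6% on V (exact permutation p = 0.833). Of the 37, 19 held 3 peaks and 14 held 4, so that 33 were of these sizes. On I these sizes made up 31 of 35 such groups and on IV 18 of 20. They were a smaller part on II (30 of 38), III (32 of 40) and V (30 of 42). The largest on X held 7, as on III, while the largest on I, II, IV and V held 8 to 11. X had 4 groups of 5 or more, against 2 (IV) to 12 (V) on the autosomes. The groups were found along the whole chromosome, 11 in the left 33.3%, 12 in the central 33.3% and 14 in the right 33.3%, and their median length was 11.0 kb.

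The 2 groups of 7 differed in strength. The first lay at 3099784 to 3112308, 12.5 kb long, with all 7 peaks at the highest score and a best combined rank of 347. Its peaks made only 4 non-overlapping intervals. Its members' best ranks ran to 3885 in replicate 1 and 1497 in replicate 2. The other lay at 13348339 to 13358925, 10.6 kb long, with 3 of 7 peaks at the highest score, a best rank of 590 and a median rank of 2305. One of its members, at 13354917 to 13355426, stood at rank 664 in replicate 1. Its only overlapping replicate 2 peak, at rank 29132, shared just 30 bp at its edge, so it was supported by replicate 2 only under the 1-bp rule.

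The groups of 6 also differed from each other. That at 6737504 to 6750492 had 5 of 6 peaks at the highest score and a median combined rank of 388.5. Its best ranks were 138 and 270 in the replicates, which listed 17 and 14 peaks across its 13.0 kb, and its members' median ranks there were 246 and 586. That at 15600500 to 15616815 had all 6 peaks at the highest score and a best rank of 309, with best replicate ranks of 312 and 394 and median ranks of 2275.5 and 990.5. For comparison, the members' median ranks were 830 and 1322 in the first group of 7 and 1289 and 1706 in the other. All 6 peaks were separate intervals in both groups. The fifth group by size, chosen among the groups of 4 by its best rank, lay at 2227016 to 2243116. It held the 8th-ranked X peak together with a peak near the end of the ranking, at rank 2662.

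The highest-ranked X locus lay at 5841109 to 5841462, first by peak number among the 365 X peaks tied at the highest score. It was rank 4 of the whole combined list, rank 11 in replicate 1 and rank 20 in replicate 2, and was 354 bp wide in the combined list and 280 and 244 bp wide in the replicates. It stood alone, with 27.7 kb to the peak on its left and 112 kb to that on its right. The next, at 6296261 to 6296753, was combined rank 15, rank 14 in replicate 1 and rank 100 in replicate 2, and was also isolated by 32.6 and 74.4 kb. Both lie within 3 percentage points of each other along the chromosome, at 33.0% and 35.5% of the span.

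The other 8 of the 10 highest-ranked X peaks lay nearer the ends. Those at 16681910 to 16682218 (combined rank 25), 17146534 to 17146853 (rank 30), 16929444 to 16929844 (rank 43) and 16056207 to 16056702 (rank 44) all fell in the last 10% of the span. Those at 2996915 to 2997314 (rank 38) and 2242844 to 2243116 (rank 40) lay in the left 33.3%, and those at 11937355 to 11937616 (rank 35) and 13700648 to 13701031 (rank 37) in the right 33.3%. In all, 3 of the 10 were in the left, 1 in the central and 6 in the right 33.3% of the chromosome. The replicates ordered several of these peaks differently, but each peak had the highest score in both replicates. Their order within a replicate therefore rests on peak number. The peak at 11937355 stood at rank 482 in replicate 1 and rank 16 in replicate 2, and that at 16929444 at rank 19 and rank 165. Ranks in both replicates were close for the peaks at 2996915 (65 and 46) and 16056207 (76 and 68).

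Among the 25 highest-ranked X peaks, which reach combined rank 135, every one overlapped a peak of both replicates. Their worst ranks were 541 and 414 and their medians were 76 and 109. Of these 25 peaks, 15 stood more than 10 kb from any other combined peak, 4 were in pairs and 6 were in groups of 3 or more. Among all 491 X peaks, 46.0% stood alone, 25.7% were in pairs and 28.3% were in such groups. Along X, 7 of the 25 were in the left, 7 in the central and 11 in the right 33.3%. Of all X peaks these parts held 32.0%, 31.4% and 36.7%.

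The highest-ranked X peaks were mostly listed as narrow. The usual width in the combined list was 510 bp. On X, 408 peaks had exactly this width, 83 (16.9%, 95% Wilson interval 13.8 to 20.5) were narrower and 0 were wider, beside 18.4% narrower in the whole list and 16.8% to 23.0% on the autosomes. Of the 100 highest-ranked X peaks 69 were narrower, against 14 of the remaining 391 (3.58%). These 100 all sit at the highest score, so their order rests on peak number. The same split is not given here for the autosomes. The 83 narrower X peaks had a median of 232 bp and the narrowest was 128 bp. Whether width followed from binding or from peak calling was not tested.

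Peaks that stood alone on X were more often at the highest score than those in groups of 3 or more. The 126 X peaks in pairs, left out of this contrast, had a median combined rank of 1579. That of solitary peaks was 1263.5 and that of peaks in groups of 3 or more was 1409. These medians all lie within the 1976 combined peaks tied at the highest score, so their order rests on peak number. Of the 226 solitary peaks 181 (80.1%, 95% Wilson interval 74.4 to 84.8) were at the highest score, against 99 of the 139 in groups of 3 or more (71.2%, 63.2 to 78.1), so that the intervals overlap. The difference, groups minus solitary, was -8.87 percentage points on X and between -0.127 (IV) and 10.4 (I) on the autosomes (exact permutation p = 0.167, the smallest possible). In neither replicate did the median ranks place solitary X peaks at a higher score than grouped ones. In replicate 1 solitary X peaks had a median rank of 1929 and grouped ones 1535.5, the reverse order. In replicate 2 the medians were 1345 and 1378, both within the 1966 peaks tied at its highest score, so they do not differ in score. This comparison was chosen after its values had been seen.

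Nearly every X peak was found in both replicates. Replicate 1 overlapped 489 of 491 (99.6%, 95% Wilson interval 98.5 to 99.9), beside 99.0% of the whole combined list. Replicate 2 overlapped all 491 (100%, 99.2 to 100), beside 99.8%. Both together overlapped 489, beside 98.8%, and the autosomes ranged from 97.7% on IV to 99.3% on III (exact permutation p = 0.333). As the combined list was made from these replicates, such support is a description. The 2 exceptions lay at 1486209 to 1486718 (combined rank 2007) and 7798252 to 7798761 (rank 2271). Replicate 2 ranked them 531 and 1038, both at its highest score. Their nearest replicate 1 peaks were 1776 and 1112 bp away and weak, at ranks 12468 and 25924.

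At X peaks the replicate peaks lay close together. Only replicate peaks overlapping the same combined peak were compared, and the combined list was made from these replicates. Short distances are therefore partly built in and serve as a description. Where both replicates overlapped an X peak, the centres of their best peaks were a median of 42 bp apart, with quartiles of 20 and 79.5 bp. On the autosomes the median ran from 31 bp (IV) to 40 bp (V), so X had the largest of the 6 (exact permutation p = 0.167, the smallest possible). The share within 100 bp was nonetheless like that of the autosomes, 82.6% against 80.2% to 84.6%.

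The ranks of X peaks in the replicates were like those of autosomal peaks. The median best rank of the X peaks was 1827 in replicate 1, with quartiles of 751 and 2882, and 1409 in replicate 2, with quartiles of 635 and 2336.5. Autosomal medians ran from 1483 (V) to 2080 (II) and from 1271.5 (IV) to 1505 (I), so X was inside the range in both. Ties weaken any comparison of ranks, since the best overlapping peak was at the highest score for 34.4% of X peaks in replicate 1 and 68.6% in replicate 2. Across the 489 X peaks with both ranks Spearman's rho was 0.30, within the autosomal range of 0.18 to 0.37. These rhos are across peaks of lists already selected for agreement, and no p is given.

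Each replicate list was also cut to its highest-ranked peaks, as many as the combined list holds. A total of 265 X peaks (54.0%, 95% Wilson interval 49.5 to 58.3) overlapped such a peak in both replicates, beside 53.8% of the whole combined list. Another 74 did so in replicate 1 alone and 127 in replicate 2 alone, and 25 in neither. The share ranked that high by replicate 2 was 79.8% on X, above the 76.4% to 78.7% of the autosomes (exact permutation p = 0.167), while replicate 1 ranked 69.0% of X peaks that high, inside the autosomal 63.3% to 78.3%. The widest disagreements were at 2971464 to 2971973, at rank 25414 in replicate 1 and 578 in replicate 2, and in the opposite direction at 14480139 to 14480648, at ranks 450 and 22475, leaving out the peak at 13354917 whose overlap was marginal. The replicate 1 peak at 2971464 shared 203 bp with the combined peak. Beyond rank 10000 were 12 X peaks in replicate 1 and 4 in replicate 2.

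**Figure D4:**
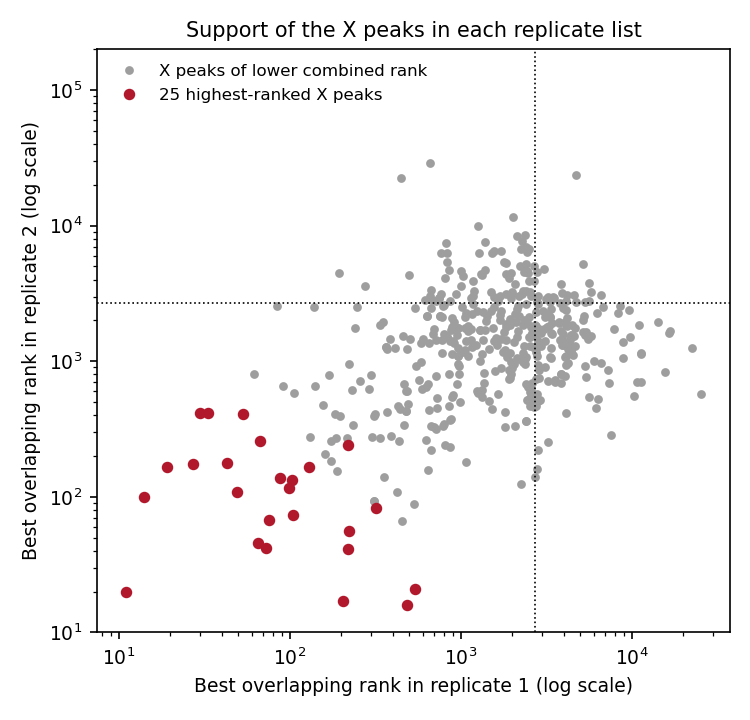
Each point is 1 of the 489 X peaks overlapped by both replicates, placed by its best overlapping rank in replicates 1 and 2 (log axes). A lower rank means a higher score or, among ties, a lower peak number. Dotted lines mark the length of the combined list. The 25 highest-ranked X peaks (red) lie at or below ranks 541 and 414, and the rest form a broad cloud with Spearman's rho of 0.30 over all points.

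X took a similar share of the peaks in each rank range. The highest score is shared by 1976 combined peaks, 986 of replicate 1 and 1966 of replicate 2. Up to those ranks the order rests on peak number, so the first ranges do not differ in score. X held 18 of the first 100 combined peaks and 87 of the first 500 (17.4%). In replicate 1 X held 16.8% of the first 1000 peaks (95% Wilson interval 14.6 to 19.2), 20.0% of ranks 2708 to 5000 and 17.6% beyond rank 20000. In replicate 2 the same ranges gave 17.8% (15.6 to 20.3), 19.8% and 18.5%. Over the full lists X held 18.2% and 18.5%. The highest share in both lists was at ranks 2708 to 5000, just beyond the length of the combined list.

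The replicate lists held many X peaks outside the combined list, at about the autosomal share. Of 4734 X peaks in replicate 1, 632 (13.4%) overlapped a combined peak, and of 5455 in replicate 2, 601 (11.0%) did, within the autosomal ranges of 12.0% to 14.3% and 10.2% to 11.9%. All 81 and all 87 X peaks within the first 500 ranks of the replicates overlapped a combined peak. This was ordinary, since all did so on II, III and IV in replicate 1 and on I, II and III in replicate 2. Nearly all did so on the remaining autosomes of each replicate. The best-ranked X peaks that overlapped no combined peak stood at ranks 700 and 713. On the autosomes such peaks started at ranks between 153 (V) and 1017 (IV) in replicate 1 and between 188 (V) and 1082 (II) in replicate 2. Outside the combined list, 1996 X peaks of replicate 1 (42.2% of its X peaks) and 2015 of replicate 2 (36.9%) overlapped a peak of the other replicate. These shares also lay within the autosomal ranges, 39.4% to 43.4% and 34.4% to 38.3%.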

How the data were processed

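Peak lists of 2 ChIP replicates and 1 combined list were used. Per the file headers and source field, the authors called peaks on WormBase WS220 with SPP and then filtered by irreproducible discovery rate. The sources used here give neither the aligner and caller settings nor the threshold or how the lists were combined. The only value per peak is the score the authors deposited. It was used to rank peaks within a list, ties by peak number; 1976 combined peaks, 986 of replicate 1 and 1966 of replicate 2 tie at the highest score.

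X peaks were taken by chromosome. Members, measures and named regions were chosen with earlier results of these data known. Named regions were the 10 highest-ranked X peaks (25 as a set), the 5 largest groups (ties by best rank), the fullest and emptiest bins, the longest gap and peaks missing from a replicate; the widest X peak was to be named too, but 408 share the largest width. Further gaps, bins and the discordant peaks were named after their values were seen. Overlap meant at least 1 bp. Gaps run between peak edges, and span is the largest peak end over the 3 lists. Alternatives for overlap, grouping, ranking, span, bins and left-out replicates are given below. The p-values compare chromosomes within 1 pooled list and do not measure spread between samples; the labels do not say whether replicates came from separate cultures. Functions were tested on simulated data. Python 3.11.15, numpy 2.4.6, pandas 2.3.3, scipy 1.17.1 and matplotlib 3.10.9 were used.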

Additional observations from a re-analysis of the deposited data

How the results depend on the processing

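Of 43 values of X under another setting, 28 stayed within the 95% interval of a share or within 1.5 times another value, and 15 moved. X stayed on the same side of the autosomal mean in 40. The exceptions, none of which was a call, were the density without replicate 2 (26.5 per Mb), the share of centres within 100 bp in replicate 2 and the share among the first 1000 peaks of both replicates (20.4%). Among the first 1353 peaks of the combined ranking, the density was 13.9 per Mb and the median gap 45.0 kb, as fewer peaks give, the share in groups of 3 or more 10.5%, and the share overlapped by replicate 1 100%. Counting peaks within 10 kb once gave 18.4 regions per Mb and a variance over mean of 0.446, still below every autosome. Gaps up to 5 kb and 20 kb put 16.1% and 47.5% of X peaks in groups of 3 or more. The central 50% held 47.7%, below every autosome. Overlap of 50% of both peaks lowered support to 86.8% in replicate 1, 90.4% in replicate 2 and 39.3% for the highest-ranked peaks of both, cut to the length of the combined list. Centres within 100 bp gave 94.3% and 95.1%. Replacing the combined list by equally many highest-ranked nuclear peaks of a single replicate kept the central share of X below every autosome (31.1% and 33.0%), as well as its variance over mean (0.964 and 0.920). The bin measure and its settings were added after seeing the data. No paired analysis was possible because no input values were used.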
